A study of Mus musculus with 4 samples.

Results

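The genes described here encode 10 subunits of the Polycomb repressive complexes: Ezh1, Ezh2, Eed, Suz12 and Jarid2 of PRC2, and Rnf2, Ring1, Bmi1, Cbx2 and Cbx7 of PRC1. They were chosen by symbol, and all 10 were found among the 22691 genes of the deposited table. Their RNA was measured in fibroblasts from female E13.5 mouse fetuses in 2 groups of 2 libraries each. WT cells had the genotype Smchd1 +/+; Xist deltaA/+ and MD1 cells the genotype Smchd1 MD1/MD1; Xist deltaA/+. Mothers were C57BL6/J (B6) and fathers were F1 males of JF1 and B6, so in both groups the maternal X carried Xist deltaA and the paternal JF1 X was the inactive one. The labels do not say whether the libraries of a group came from separate fetuses.

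PRC2 places methyl groups on histone H3 (the H3K27 mark). Its catalytic subunit is Ezh2 or Ezh1, and it works only together with the scaffold subunits Eed and Suz12. PRC1 attaches ubiquitin to histone H2A through the RING finger proteins Rnf2 or Ring1, paired with a PCGF protein such as Bmi1. Canonical PRC1 also holds a CBX protein, which reads the PRC2 mark. Both complexes are recruited to the inactive X by Xist RNA, and SmcHD1, the chromatin protein that the Smchd1 gene encodes, is known to reach the inactive X downstream of the ubiquitin mark.

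Total RNA of these genes was deposited as FPKM, fragment counts scaled to transcript length and library size, and the authors gave a single mean for each group. No error or test can therefore be given for the FPKM comparisons, and a single library could set a group mean. Ratios of MD1 to WT are given on the log2 scale after adding 1 to each FPKM, a scale that understates changes of low genes. A gene counts as higher or lower when this ratio passes 1.5-fold. The background consists of 11399 genes that averaged at least 1 FPKM and were not listed at 0 in any group.

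Smchd1 had 14.7 FPKM in WT and 1.94 in MD1, and Xist had 22.04 and 26.9. All 18 fibroblast markers were above the FPKM minimum, with Vim at up to 2802 FPKM, and 2 were higher and 6 lower in MD1 by 1.5-fold, against 6.05% and 7.65% of all genes tested. Of 21 markers of other cell types 14 were above it, and 6 were under 1 FPKM in both groups. Their summed level was 199.6 FPKM in WT and 139.9 in MD1, with 2 markers higher and 6 lower by 1.5-fold. The muscle genes Des (46.2 and 11.99) and Acta1 (67.1 and 21.3) were lower. Neural genes went both ways, with Stmn2 (9.62 and 24.8) and Tubb3 (16.4 and 31.6) higher and Map2 (6.44 and 2.05) lower. In such bulk samples, fewer cells of a type and less RNA per cell cannot be told apart, and the part of these differences in the values below was not tested.

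All 26 proliferation genes had ratios above 0, against 50.8% of all genes tested, and 20 of them were higher by 1.5-fold, against 6.05%. Their median log2 ratio was 0.70. Mki67 went from 15.8 to 32.8 FPKM and Pcna from 42.7 to 83.3. Textbook accounts place Ezh2 and Eed among the genes that E2F factors switch on in dividing cells. The upstream sequences of 9 members were searched for E2F words. Those of Ezh2 and Suz12 are shown because they hold one, with that of the paralog Ezh1, which holds none. Capitals mark matches to the words TTTGGCGC, TTTGCCGC, TTTCGCGC and TTTCCCGC, searched on both strands, and no other motif was searched. The sequences are from RefSeq (build GRCm38.p6), each on the gene's own strand and starting 250 bases before the transcript start. They cover chr6:47595006-47595280 (minus strand) for Ezh2, chr11:79992856-79993105 (plus strand) for Suz12 and chr11:101226464-101226713 (minus strand) for Ezh1. That of Ezh2 runs 25 bases past the start so as to include its match.
Ezh2: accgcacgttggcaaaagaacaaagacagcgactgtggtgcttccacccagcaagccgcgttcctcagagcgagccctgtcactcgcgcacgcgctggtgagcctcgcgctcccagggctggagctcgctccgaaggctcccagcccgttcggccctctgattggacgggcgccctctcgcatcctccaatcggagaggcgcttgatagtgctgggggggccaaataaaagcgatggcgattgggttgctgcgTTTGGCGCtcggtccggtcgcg
Suz12: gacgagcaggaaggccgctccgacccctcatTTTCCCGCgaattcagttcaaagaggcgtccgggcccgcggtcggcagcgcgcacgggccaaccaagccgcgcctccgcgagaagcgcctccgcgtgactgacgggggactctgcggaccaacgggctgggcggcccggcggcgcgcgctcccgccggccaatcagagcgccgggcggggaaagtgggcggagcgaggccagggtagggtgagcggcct
Ezh1: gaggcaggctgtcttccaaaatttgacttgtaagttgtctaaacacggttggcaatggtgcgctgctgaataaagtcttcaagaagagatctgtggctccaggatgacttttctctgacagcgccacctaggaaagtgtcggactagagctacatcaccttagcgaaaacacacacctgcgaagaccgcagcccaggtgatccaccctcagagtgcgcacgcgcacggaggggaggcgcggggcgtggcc

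The match in Ezh2 lay at position 4 after the start, and that in Suz12 began 219 bases before it. Over the full windows of 300 bases, 2 of the 9 members with an entry in the table had a match, Ezh2 and Suz12. Eed, Ezh1, Jarid2, Rnf2, Ring1, Bmi1 and Cbx7 had none. Cbx2 had no entry, so its upstream sequence was not searched. Such a word was present in 2.26% of all 32851 windows, in 4.86% of the genes tested that have a window, and in 5 of 22 proliferation genes. A match describes letters and does not show a bound factor.

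Of the 10 members, 9 passed the FPKM minimum, and 2 of these, Ezh2 and Cbx2, were higher in MD1 by 1.5-fold or more, while 6.05% of all genes tested were. None was lower by 1.5-fold, against 7.65% of all genes tested. With the bound lowered to a difference of 25%, 3 members were higher (Suz12 in addition), against 15.8% of all genes tested, and 1 was lower (Ring1), against 17.1%. The member that missed the minimum, Cbx7, was below 1 FPKM in both groups. The median log2 ratio of the 9 genes was 0.19, and that of all genes tested was 0.0058. Ratios were above 0 for 8 of the 9 and for 50.8% of all genes tested. None reached 2-fold on this scale, against 1.39% of all genes tested that were higher and 2.81% that were lower. With a minimum of 5 FPKM Cbx2 is left out, and the count of higher members is 1.

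**Figure D1:**
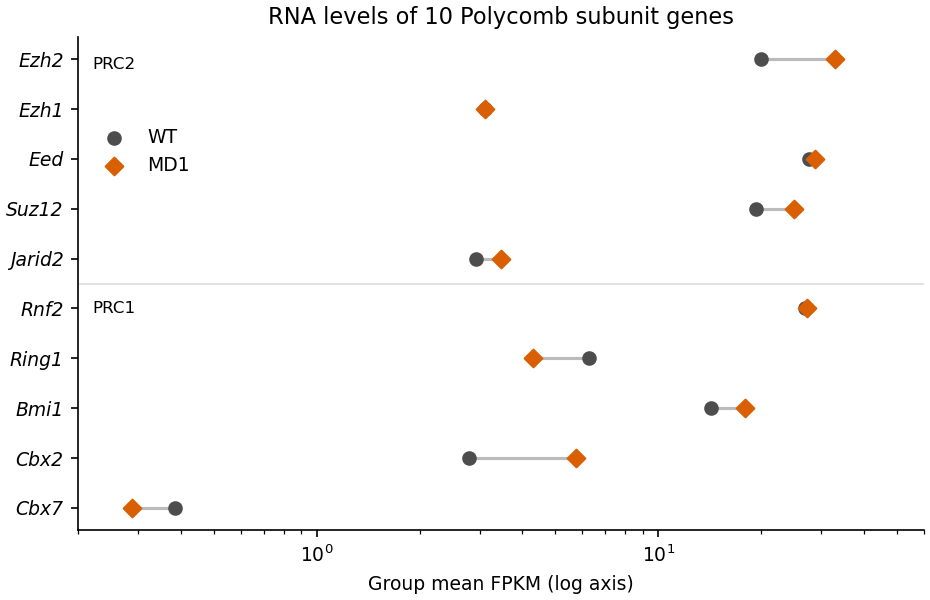
Group mean FPKM (log axis) of the 10 Polycomb subunit genes in WT (circles) and MD1 (diamonds), 1 authors' mean per group and no error bars, PRC2 above the line and PRC1 below it. Ezh2 (20.1 to 33.0) and Cbx2 (2.80 to 5.76) lie farthest to the right of their WT values, Ring1 lies to the left of its own, and Ezh1 and Rnf2 overlap theirs.

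Among the 5 PRC2 members, Ezh2 had the largest difference between the groups. Ezh2 (chromosome 6, 47480273 to 47545029 in mm9), the main methyltransferase of dividing cells, had 20.1 FPKM in WT and 33.0 in MD1. This is a difference of 12.95 FPKM and a log2 ratio of 0.69, and 4.02% of all genes tested had a higher ratio. It is close to the median of 0.70 of the proliferation genes. The part of proliferation in the Ezh2 ratio was not tested.

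Ezh1 (chromosome 11, 101052429 to 101087777), the paralog known for its use in resting cells, was measured at 3.10 FPKM in WT and at 3.11 in MD1. Its log2 ratio of 0.0018 lies in the middle of all genes tested, and was 0.064 after quantile normalization. Ezh2 RNA thus stood at 6.48 times the Ezh1 level in WT and at 10.6 times in MD1, both per length. Within their sum, the share of Ezh2 was 86.6% in WT and 91.4% in MD1.

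The scaffold genes were close to Ezh2 in level. Eed (chromosome 7, 97103164 to 97129486), which binds methylated H3K27 and thereby stimulates the enzyme, had 27.7 FPKM in WT and 28.7 in MD1, a log2 ratio of 0.052. Suz12 (chromosome 11, 79806608 to 79847625), which holds the core together, had 19.3 and 24.99 FPKM, a log2 ratio of 0.35. Between the scaffold genes, Suz12 thus had the larger ratio, which 13.99% of all genes tested exceeded, and Eed a ratio that 43.97% of them exceeded. The 3 core genes spanned 19.3 to 27.7 FPKM in WT and 24.99 to 33.0 in MD1. Eed was the highest of the 3 in WT, and Ezh2 in MD1. The level of Ezh2 was 0.726 times that of Eed in WT and 1.15 times in MD1.

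Jarid2 (chromosome 13, 44826143 to 45017012), a substoichiometric partner that helps PRC2 to bind chromatin with ubiquitinated H2A, was measured at 2.93 FPKM in WT and at 3.47 in MD1. Its log2 ratio was 0.19, and 27.4% of all genes tested had a higher one. Its RNA was well below that of the core genes, with Eed at 9.43 times its level in WT and 8.27 times in MD1. Aebp2, which sits with Jarid2 in the same form of PRC2, had 60.4 and 69.2 FPKM, or 20.6 times the Jarid2 level in WT and 19.9 times in MD1.

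Among the PRC1 genes, the RING paralogs differed in level and in ratio. Rnf2 (Ring1b, chromosome 1, 153316536 to 153347953), the main ligase of most cells, had 26.8 FPKM in WT and 27.3 in MD1, a log2 ratio of 0.023. Ring1 (Ring1a, chromosome 17, 34157737 to 34161625) had 6.28 and 4.30 FPKM, a log2 ratio of -0.46, and 10.9% of all genes tested had a lower ratio. It was the only one of the 9 members with a ratio below 0, and it did not pass 1.5-fold. The share of Rnf2 in their sum was 81.03% in WT and 86.4% in MD1. Ring1 lies 37.5 Mb from Smchd1 on the same chromosome. The F1 fathers pass on B6 or JF1 blocks, so alleles linked to Smchd1 and the MD1 genotype cannot be told apart for this gene. For the other autosomal members, too, inherited JF1 alleles and differences between cultures cannot be told apart from genotype.

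Bmi1 (Pcgf4, chromosome 2, 18598645 to 18608256), the PCGF subunit known for holding down the Cdkn2a locus in fibroblasts, was measured at 14.3 FPKM in WT and at 17.9 in MD1. Its log2 ratio was 0.31, and 16.8% of all genes tested had a higher one. Its closest paralog Pcgf2 (Mel18) had 17.3 and 15.5 FPKM. Bmi1 was therefore the lower of this pair in WT and the higher in MD1, with 45.2% and 53.6% of their sum.

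Cbx2 (chromosome 11, 118884343 to 118892584), a CBX subunit known for compacting chromatin, was measured at 2.80 FPKM in WT and at 5.76 in MD1. Its log2 ratio of 0.83 was the largest of the members, and 2.38% of all genes tested had a higher one. With a pseudocount of 0.1 the log2 ratio was 1.01. Cbx8, which encodes another CBX protein and lies 7.17 kb away, had 4.43 and 4.83 FPKM, with a log2 ratio of 0.10. The difference in Cbx2 was thus not matched in size by this neighbour.

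Cbx7 (chromosome 15, 79746237 to 79763076), a CBX subunit known from stem cells and from repression of Cdkn2a, had 0.384 FPKM in WT and 0.287 in MD1. These values are too low for a ratio to be read. Cbx6, which lies 81.5 kb away, had the highest level of the CBX genes described here, with 15.98 and 16.3 FPKM. Of the FPKM summed over Cbx2, Cbx6, Cbx7 and Cbx8, Cbx6 held 67.7% in WT and 60.02% in MD1, Cbx2 11.9% and 21.2%, and Cbx7 1.63% and 1.06%.

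**Figure D2:**
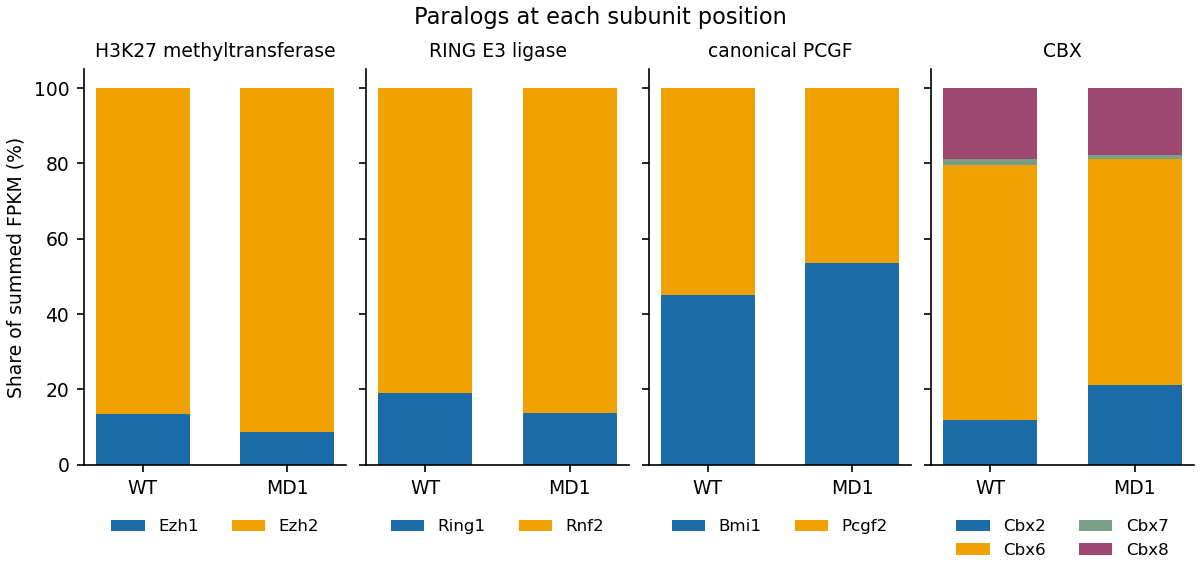
Share (%) of the summed FPKM held by each paralog at 4 subunit positions, in WT and MD1, from 1 mean per group and without error bars. Ezh2 and Rnf2 hold over 80% of their pairs in both groups, Bmi1 goes from 45.2% to 53.6%, and Cbx2 from 11.9% to 21.2%.

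In order of level, the members in WT ran Eed, Rnf2, Ezh2, Suz12, Bmi1, Ring1, Ezh1, Jarid2, Cbx2 and Cbx7. In MD1 the order was Ezh2, Eed, Rnf2, Suz12, Bmi1, Cbx2, Ring1, Jarid2, Ezh1 and Cbx7. Ezh2 moved from position 3 to position 1 and Cbx2 from position 9 to position 6. Without a spread between libraries, it cannot be said which neighbours in these orders differ. No member overlapped another gene of the table in position. Whether members have near-identical copies elsewhere in the genome was not checked.

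The remaining Polycomb genes showed few differences of this size. A further 55 genes were listed as subunits of PRC2 or PRC1, as deubiquitinases of H2A with their partners, or as demethylases of H3K27. Of the 55, 52 passed the FPKM minimum. Of these, 1 was higher and 0 were lower by 1.5-fold, against 6.05% and 7.65% of all genes tested, and their median log2 ratio was 0.090. That median was 0.053 for the 46 autosomal genes among them and 0.335 for the 6 X-linked ones. The higher gene was E130012A19Rik (Epop), which encodes a PRC2 partner linked to elongin, with 2.71 FPKM in WT and 6.61 in MD1, a log2 ratio of 1.04.

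Among 7 other PRC2 genes tested, 5 had ratios above 0, against 50.8% of all genes tested, and the median was 0.19. The Polycomb-like genes, whose products guide PRC2 to CpG islands, went different ways. Phf1 on chromosome 17 had 8.17 and 5.33 FPKM, a log2 ratio of -0.53, Mtf2 had 6.09 and 6.73, and Phf19 had 2.41 and 2.33. Mtf2 held 36.5% of their sum in WT and 46.8% in MD1. The histone-binding subunit gene Rbbp4 had 48.8 and 62.4 FPKM.

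None of 7 other canonical PRC1 genes passed 1.5-fold, against 6.05% of all genes tested that were higher and 7.65% that were lower. Their log2 ratios lay between -0.27 and 0.20. Phc2, a subunit that polymerizes PRC1, was the most abundant of them with 79.7 and 91.5 FPKM. None of 24 variant PRC1 genes passed either, with a median of 0.15 and a range from -0.27 to 0.58. The highest ratio belonged to Pcgf6, the PCGF subunit of the variant with Mga and E2f6, at 5.99 and 9.47 FPKM. After adding 1 to each FPKM its ratio was 1.497-fold, just under the bound. The counts of these lists past 1.5-fold were not repeated with a smaller pseudocount. Pcgf3, whose variant starts the ubiquitin mark on the inactive X together with that of Pcgf5, had the highest level of the 6 PCGF genes, with 46.6 and 42.3 FPKM. Pcgf5 itself had 10.8 and 9.05. Genes of H2A deubiquitinases and of their partners had a median of -0.033 over 12 genes.

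**Figure D3:**
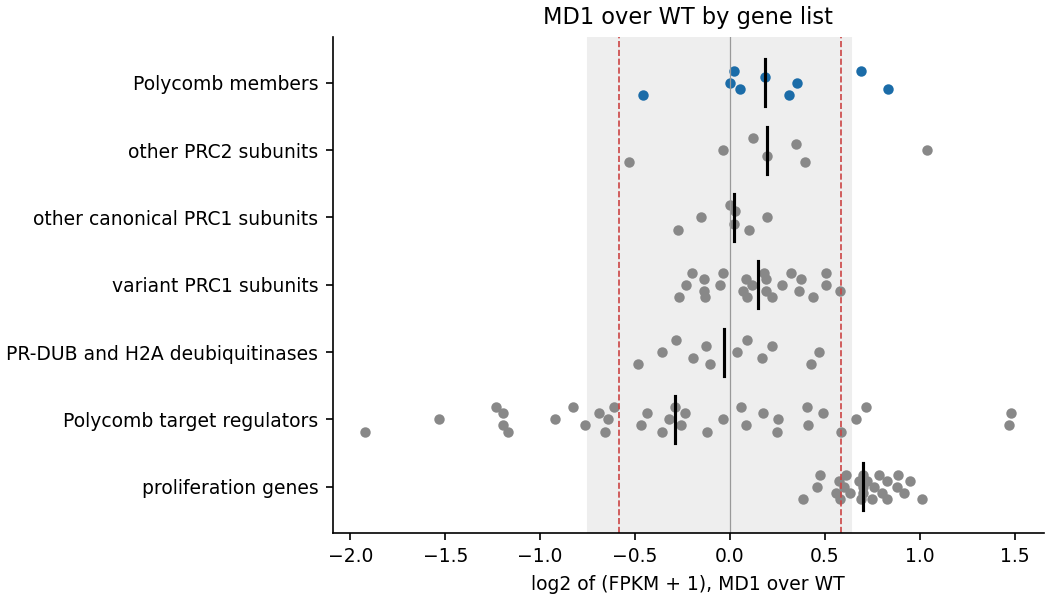
Log2 ratio of MD1 to WT, after adding 1 to each FPKM, for genes above the FPKM minimum, by list. Points are genes, black bars medians, dashed lines 1.5-fold, and the grey band holds the middle of all genes tested, from percentile 5 (-0.75) to percentile 95 (0.64). Ezh2 and Cbx2 are the 2 member points right of the dashed line, where most proliferation genes lie.

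Several Polycomb subunits are encoded on X, where reads could be assigned to the parental alleles in each library. Allele-specific totals over X were 521768 to 806626 reads per library. Of 8 X-linked genes in the lists, 6 had enough reads for edgeR's quasi-likelihood test, with Benjamini-Hochberg adjustment over 391 X genes. In this test 5 of the 6 rose in their paternal (JF1) share of reads, and 74.4% of all 391 genes did, while 0.256% fell. The p-values rest on a spread between these libraries that the fit shares over genes and that may be technical. Their size depends on the settings. For Ogt the adjusted p was 1.02e-119 here (edgeR), 7.59e-18 with a minimum mean of 50 reads (edgeR) and 2.2e-19 with DESeq2.

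Rbbp7, the histone-binding PRC2 subunit and the most abundant Polycomb gene on X, showed no JF1 reads in WT (0 of 1221 and 0 of 1448 reads, which together allow a share of up to 0.112%, counting error only). Its share was 11.7% and 12.8% in the MD1 libraries, and the groups did not overlap (adjusted p = 2.97e-51, edgeR, rise of 12.2 points, higher in 2 of 2 MD1 libraries). Its FPKM was 125.4 in WT and 165.1 in MD1. Splitting these means by the pooled shares, the maternal part was 125.4 and 144.8 FPKM, so the paternal part of 20.3 FPKM covered about as much of the difference as the maternal part did.

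Bcor, a subunit of the variant PRC1 with Pcgf1, had shares of 0.227% and 0.0758% in WT and of 19.6% and 20.2% in MD1 (adjusted p = 3.42e-65, edgeR). Its maternal part was 12.8 FPKM in WT and 12.6 in MD1, against totals of 12.8 and 15.8. Its relative Bcorl1 stood at 0.338% and 0% in the WT libraries and at 2.30% and 5.58% in the MD1 libraries (adjusted p = 3.93e-07, edgeR). The rise of Bcorl1 was 3.77 points, and 2.13 points without MD1 replicate 2 (adjusted p = 0.0197, edgeR). With TMM scaling, which centres out the common rise over X, the log2 change of the JF1-to-B6 ratio was -1.32 for Bcorl1 and its call was lost (adjusted p = 0.5097, edgeR).

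Ogt, the sugar transferase bound to the deubiquitinase complex PR-DUB, stood at 0.176% and 0% in the WT libraries and at 45.6% and 45.8% in the MD1 libraries (adjusted p = 1.02e-119, edgeR). Its FPKM was 20.5 and 28.8, while the maternal part was 20.5 and 15.6. Hcfc1, a partner of the same complex, stood at 0.112% and 0.0331% in the WT libraries and at 38.6% and 37.7% in the MD1 libraries (adjusted p = 3.02e-110, edgeR). Its FPKM was 30.7 and 41.7, and the maternal part 30.7 and 25.8. In both genes the total was higher in MD1 and the maternal part lower. These parts rest on 1 FPKM mean per group and have no error.

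Kdm6a, a demethylase of H3K27 known to escape X inactivation, had shares of 32.7% and 30.2% in WT and of 41.9% and 39.8% in MD1. The groups did not overlap, but the difference of 9.42 points did not pass (adjusted p = 0.0655, edgeR). With TMM scaling, which centres out the common rise, its log2 change was -4.97 (adjusted p = 4.41e-39, edgeR). This value does not show a fall in share. A gene with a high WT share has less room to rise on this scale than genes with almost no JF1 reads in WT. Scml2, which is related to a PRC1 subunit of flies, had 0 JF1 reads among 33 in MD1, which allows up to 9.09%, and too few reads for the test. AU022751 (Ezhip, an inhibitor of PRC2) had no allele-specific read. Of the 6 genes tested, the MD1 share of Ogt exceeded that of 94.1% of all 391 genes, that of Rbbp7 48.8% and that of Bcorl1 34.5%.

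**Figure D4:**
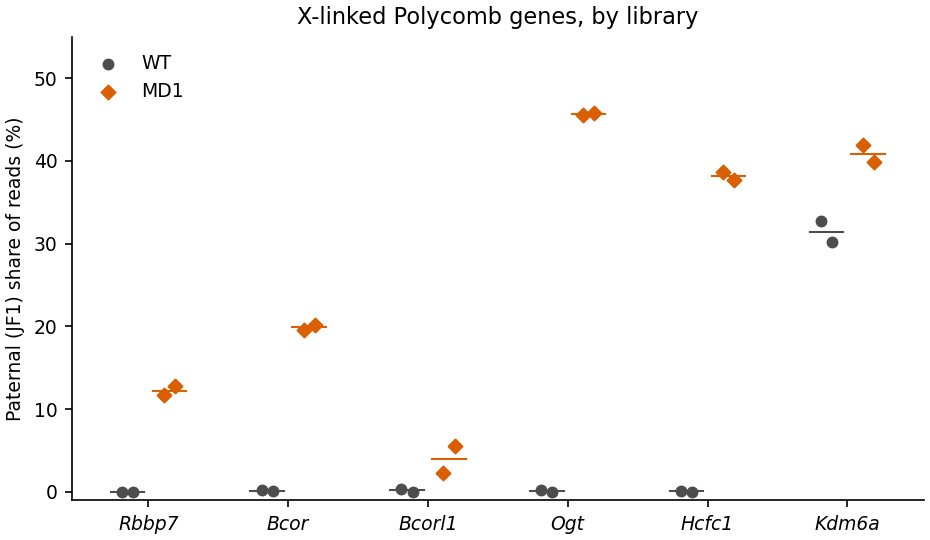
Paternal (JF1) share of allele-specific reads (%) of 6 X-linked Polycomb genes in each library, WT as circles and MD1 as diamonds, with bars at the mean of 2 libraries. WT shares are under 1% except in Kdm6a, and MD1 shares run from 2.30% (Bcorl1) to 45.8% (Ogt).

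Genes known as Polycomb targets went both ways, more often down. The list holds 56 measured developmental regulators and cell-cycle inhibitors that textbooks name as Polycomb-bound in stem cells, and their binding in these fibroblasts was not measured. Of these, 35 passed the FPKM minimum, and 18 were under 1 FPKM in both groups. Among the 35, 13 were lower by 1.5-fold (37.1%, against 7.65% of all genes tested) and 4 were higher (11.4%, against 6.05%). This was not particular to the targets. By the same bound, 6 of 18 fibroblast markers and 6 of 14 markers of other cell types were lower, with 2 higher in each list. The median log2 ratio was -0.29, and it was -0.15 with no minimum and -0.18 with a minimum of 5 FPKM.

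Bmp4, a growth factor gene, had the lowest log2 ratio of the 35, -1.92, from 48.1 to 11.97 FPKM. The homeobox genes Dlx5 and Dlx1 went from 6.47 to 1.58 and from 2.04 to 0.293. Zic1 and En1, which encode neural and limb patterning factors, were higher, from 2.46 to 8.68 and from 2.003 to 7.32 FPKM, with log2 ratios of 1.48 and 1.47. Cdkn2b, an inhibitor of cyclin-dependent kinases and part of the locus that Bmi1 and Cbx7 are known to repress, went from 89.1 to 38.3. Its neighbour Cdkn2a, named after its value was seen, went from 70.9 to 37.01 FPKM, a log2 ratio of -0.92, beside the ratio of 0.31 of Bmi1. Whether the subunit levels bear on these targets was not tested.

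**Figure D5:**
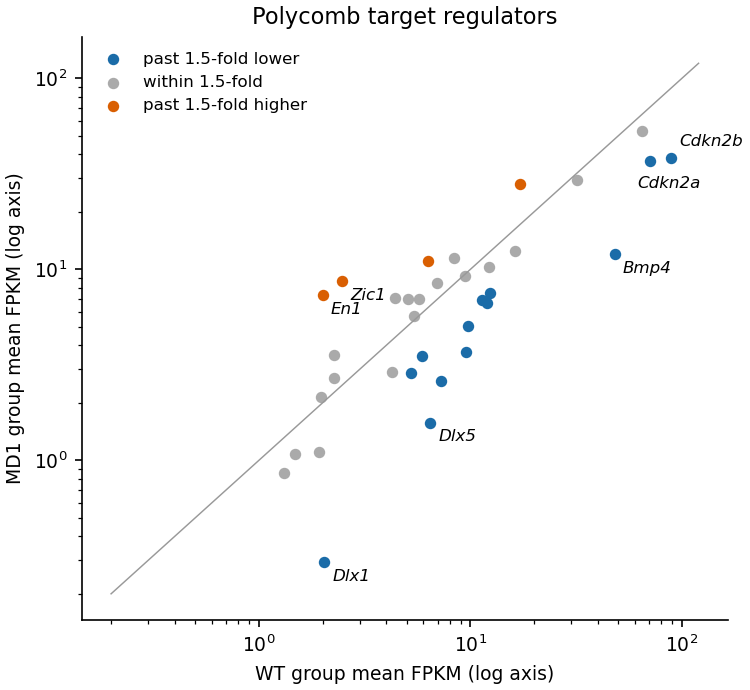
WT against MD1 group mean FPKM (both axes log) of the 35 target regulators above the FPKM minimum, coloured by whether the ratio of (FPKM + 1) passes 1.5-fold, with the diagonal marking equal levels. There are 13 genes lower and 4 higher in MD1, with Bmp4, Dlx5 and Dlx1 far below the diagonal and Zic1 and En1 above it.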

How the data were processed

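Polyadenylated RNA was sequenced with a stranded kit, per the labels' protocols. FPKM was deposited by the authors as 1 mean per group. For X-linked genes, each library also has deposited counts of allele-specific reads, and the JF1 share of these reads was deposited as a fraction. JF1 counts were recovered as share times reads, whole within 0.001. The submitters' processing notes list Cufflinks 2.2.1, Cuffdiff and mm9 without saying what each was used for. No aligner, annotation or strand setting is given in the sources used here. FPKM carries no depth, so no interval is given for it. Gene starts, counted from 0 in the table, were moved up by 1.

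The planned limma test could not be fitted to 1 mean per group. FPKM ratios used a pseudocount of 1, and genes that averaged at least 1 FPKM and were not listed at 0. Paternal shares were tested with edgeR 4.0.16 (R 4.3.3) on JF1 and B6 counts, with terms for library, allele and allele by genotype, for genes with a share in all 4 libraries and a mean of 20 reads or more, without Xist, at an FDR of 0.05. The test was checked on simulated counts. Read counts of the 2 libraries of a group differed beyond sampling noise (chi-square per degree of freedom 95.8 in WT and 83.8 in MD1). Each library was counted as 1 replicate, though this spread does not show that the libraries came from separate fetuses.

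Members and lists were chosen with earlier results of these data known. The text names every member, up to 6 genes of a list past 1.5-fold by size of ratio, X-linked Polycomb genes, Smchd1 and Xist. Vim and Tubb3 are named outside this rule. Other genes of the Polycomb lists are given as values for their role or level and were named after their values were seen. Of the planned Polycomb lists, 1 gene is not reported here and enters no list or share.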

Additional observations from a re-analysis of the deposited data

How the results depend on the processing

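Ezh2 and Cbx2 were higher by 1.5-fold with a pseudocount of 0.1 and after quantile normalization. A smaller pseudocount can only raise the ratio of a gene that is higher in MD1, so it could not undo these calls. Leaving out the minimum on FPKM cannot change their ratios. The count of higher members was 1 with a minimum of 5 FPKM, which Cbx2 does not reach, and 0 at 2-fold. With the bound lowered to a difference of 25%, 3 members were higher and 1 was lower, against 15.8% and 17.1% of all genes tested. The median log2 ratio of the members was 0.12 with no minimum, where Cbx7 enters, and 0.18 to 0.24 under the other alternatives. Of 138 values of single genes, paralog shares and list medians under an alternative, 129 kept their call and, where no test applies, stayed within 1.5 times or 0.1 (log2) of the value given. Some of these could not move, since a minimum on FPKM does not alter the ratio of a gene. Shares within a pair of paralogs mirror each other and are counted for each gene. The median of the markers of other cell types was -0.21, and 0.083 with a minimum of 5 FPKM.

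Among the X-linked genes, 5 rose with DESeq2, with a minimum mean of 10 or 50 reads and with any 1 library left out, where the lone library is assumed to vary like the other group. With a replicate block 6 rose, since Kdm6a passed (log2 change of the JF1-to-B6 ratio 0.59, adjusted p = 0.0389, edgeR). The labels give no shared source for equal replicate numbers, and the deviations of equally numbered libraries correlated at 0.058 over genes, so the block is given here once. TMM scaling over the allele columns, which by construction removes the common rise in paternal reads, left 4 of the 6 rising. It turned the log2 change of Bcorl1 to -1.32 (adjusted p = 0.5097, edgeR) and that of Kdm6a to -4.97 (adjusted p = 4.41e-39, edgeR). The JF1 share of both genes was higher in MD1, so these values are relative to the common rise and show no fall in share. Over all 391 genes it gave 117 rises and 34 falls, against 291 and 1.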

Other observations

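The Trithorax and COMPASS genes, many of whose products work in complexes that methylate H3K4 and oppose Polycomb, showed small differences. All 14 measured genes passed the FPKM minimum, and 12 had ratios above 0, against 50.8% of all genes tested. None passed 1.5-fold, against 6.05% of all genes tested that were higher and 7.65% that were lower. Their median log2 ratio was 0.16, with a range from -0.085 to 0.45. Paxip1, a subunit of the complexes with Kmt2c and Kmt2d, had the highest ratio, at 6.07 FPKM in WT and 8.67 in MD1. Kmt2a had 6.32 and 7.04 FPKM and Kmt2d 4.21 and 4.49. Kdm6b, the autosomal demethylase of H3K27, had 13.1 and 9.10 FPKM, a log2 ratio of -0.48, while its X-linked relative Kdm6a had 7.60 and 8.56. These genes were named after their values were seen.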
